A study of Mus musculus with 48 samples.

Results

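The IGHV14 family, also called SM7, is a small group of mouse immunoglobulin heavy-chain variable (V) genes. Its members were taken by name: every deposited sequence whose V gene was called IGHV14-1, IGHV14-2, IGHV14-3 or IGHV14-4, which is 4 of the 148 IGHV genes named in the 48 libraries. The libraries are B cell receptor (BCR) heavy-chain repertoires of the lacrimal gland (LG) and the spleen (SP) of 24 C57BL/6 mice. The NOD-FMT group (10 mice, 5 weeks old at the start) was gavaged for 3 weeks with fecal microbiota pooled from 30 NOD.B10.H2b mice, a strain with autoimmune dry eye, older than 20 weeks. The PBS-T group (9 mice of the same age) was gavaged with PBS on that schedule, and mice of both groups had their feces mixed between cages and drank antibiotics beforehand. The NC group (5 mice) came from the same cohort and was left untreated, so it differs from PBS-T by the antibiotics, the mixing and the gavage together, and its age is not given. Each mouse gave 1 LG and 1 SP library, and the feces were a pool, so the NOD-FMT mice stand for 1 donor pool. The tables hold V, J and constant-region calls and no transcripts of other genes, so the tissue labels could not be checked against marker genes.

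An IGHV gene encodes most of the heavy-chain variable domain, including the first and second antigen-contacting loops (CDR1 and CDR2). The third loop, HCDR3, is made where IGHV, D and IGHJ segments are joined, and IGHV supplies only its first residues. A B cell starts with IgM and IgD, and after activation may switch its constant region to IgG or IgA and acquire V mutations. IgA is the isotype of secretions and dominates glandular tissue such as the LG. Usage of a gene is given here as its percent of the clonotypes of a library, a clonotype being all sequences of a library with the same IGHV, the same IGHJ and the same HCDR3 residues, so that an expanded clone is counted once. Usage of mRNA is given separately as percent of counts, where fewer B cells and less mRNA per cell cannot be told apart.

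The germline V regions of the 4 members (GENCODE M21 transcripts, GRCm38) are shown because the differences between them decide which read is assigned to which member. Capitals in IGHV14-1, IGHV14-2 and IGHV14-4 mark the bases that differ from IGHV14-3, and capitals in IGHV14-3 mark the 21 positions at which any other member differs from it.
IGHV14-1: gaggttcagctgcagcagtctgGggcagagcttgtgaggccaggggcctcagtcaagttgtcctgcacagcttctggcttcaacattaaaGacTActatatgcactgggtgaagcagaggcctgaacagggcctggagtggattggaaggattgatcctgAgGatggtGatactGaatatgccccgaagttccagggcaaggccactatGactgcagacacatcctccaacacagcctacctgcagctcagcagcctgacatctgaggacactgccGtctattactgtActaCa
IGHV14-2: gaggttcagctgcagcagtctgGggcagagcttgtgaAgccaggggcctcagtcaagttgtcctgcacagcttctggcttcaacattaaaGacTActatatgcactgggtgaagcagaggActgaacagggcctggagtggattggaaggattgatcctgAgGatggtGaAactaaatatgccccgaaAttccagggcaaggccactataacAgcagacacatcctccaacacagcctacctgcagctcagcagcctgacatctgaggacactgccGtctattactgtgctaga
IGHV14-3: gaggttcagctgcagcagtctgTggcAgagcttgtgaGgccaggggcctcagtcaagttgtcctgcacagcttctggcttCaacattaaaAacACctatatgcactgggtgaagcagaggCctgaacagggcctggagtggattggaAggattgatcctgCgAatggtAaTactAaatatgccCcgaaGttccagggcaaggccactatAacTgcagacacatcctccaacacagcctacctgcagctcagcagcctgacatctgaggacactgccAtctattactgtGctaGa
IGHV14-4: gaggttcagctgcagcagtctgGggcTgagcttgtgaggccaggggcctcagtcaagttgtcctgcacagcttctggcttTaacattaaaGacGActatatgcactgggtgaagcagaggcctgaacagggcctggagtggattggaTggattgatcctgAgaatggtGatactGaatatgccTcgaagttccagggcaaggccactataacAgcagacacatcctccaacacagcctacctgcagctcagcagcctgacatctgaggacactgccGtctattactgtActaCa
All 4 are 294 bases long. IGHV14-1 and IGHV14-4 were the closest pair, with 8 differing bases (97.28% identity), and IGHV14-3 and IGHV14-4 the most distant, with 15 (94.9%). CDR1 reads GFNIKDYY in IGHV14-1 and IGHV14-2, GFNIKNTY in IGHV14-3 and GFNIKDDY in IGHV14-4, and CDR2 reads IDPEDGDT, IDPEDGET, IDPANGNT and IDPENGDT in the order of the gene numbers. All 4 start with gaggttcagctgcagcagtc, which is matched exactly by 1 of the 35 V primers and is thus the primer they share. Between 99.08% and 99.41% of the sequences deposited as unmutated matched the germline shown, according to the member.

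All 4 genes are transcribed from the minus strand of chromosome 12 (GRCm38), and each is annotated as an IG_V_gene: IGHV14-1 at 113931953 to 113932382, IGHV14-2 at 113994469 to 113994898, IGHV14-3 at 114059845 to 114060321 and IGHV14-4 at 114176438 to 114176867. They are the 36th, 40th, 44th and 54th of 185 annotated IGHV genes and pseudogenes counted from the D-proximal end, over 244.9 kb, with genes of other families between them. Usage did not follow this order. In SP, IGHV14-2 was used most (24th of 136 IGHV genes by median usage), followed by IGHV14-3 (31st), IGHV14-4 (35th) and IGHV14-1 (49th).

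The LG libraries held 40513 to 360216 counts (median 78967) and the SP libraries 86717 to 2302185 (median 419704). Sequences that 3 or more mice had in common within a tissue were removed, after which 40105 to 264365 and 71859 to 2032338 counts a library were left. The family had 75833 of 2878417 LG counts and 526787 of 11666610 SP counts before that step. Some libraries stood apart. The LG of PBS-T 5 held 17213 clonotypes against 560 to 2504 in the other LGs, the LG of NC 3 shared 93.71% of its counts with the LG of NC 2, and the SP libraries of PBS-T 6 and NOD-FMT 9 shared sequences that made up 65.9% of the PBS-T 6 counts. Other LGs shared 0.2436% (PBS-T 9) to 34.37% (PBS-T 5) of their counts with their most similar library. Among them were PBS-T 8 (26.86%), NOD-FMT 4 (24.48%) and NOD-FMT 7 (24.27%). Sequences held by 2 mice were kept in the main tests. In the LG of NOD-FMT 7, 56.3% of HCDR3 nucleotide sequences lay under several IGHV genes, against 2.52% to 42.5% in the other LGs, and it is left out in the tests that leave out 1 mouse at a time. The tests were repeated without 4 mice (NC 2, NC 3, PBS-T 5 and PBS-T 6), and the permutation tests also within the 11 LG libraries that the labels call merged and within the others.

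The group differences with the smallest p were in 1 member and in switched isotypes. IGHV14-3 made up a larger part of the IgG and of the IgA clonotypes of the spleen in NOD-FMT mice than in PBS-T or NC mice. In IgM and IgD the difference did not pass the test. Groups were compared within an isotype after the values had been seen, so these tests describe the pattern and are not independent evidence for it.

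Among SP IgG clonotypes, IGHV14-3 had 1.82% (lowest), 2.43% (median) and 4.96% (highest) in the 10 NOD-FMT mice. The 9 PBS-T mice had 0.735%, 1.17% and 1.50%. The 5 NC mice had 1.16%, 0.871%, 1.27%, 1.47% and 0.891%. Every NOD-FMT mouse was above every PBS-T and NC mouse. The share of all genes that part the groups in this way is not given. The means were 2.55% ± 0.899 (SD, n = 10), 1.19% ± 0.246 (n = 9) and 1.13% ± 0.256 (n = 5). In edgeR's quasi-likelihood test on clonotype numbers, the log2 fold change of NOD-FMT over PBS-T was 1.10 (SE 0.17, adjusted p = 4.9e-06), the smallest p of 79 IGHV genes. Of those 79 genes 6.33% were called, and IGHV14-3 was the 1 called member of 4. Against NC it was 1.15 (SE 0.22, adjusted p = 0.000242; 5.06% of genes called). PBS-T and NC differed by 0.05 (adjusted p = 0.987; 1.27% of genes called). The same NC and PBS-T mice serve in these comparisons, which are therefore not independent of each other.

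Among SP IgA clonotypes, IGHV14-3 had 2.15%, 2.98% and 5.41% (lowest, median, highest) in NOD-FMT mice and 0.998%, 1.30% and 2.55% in PBS-T mice. NC mice had 1.13%, 1.11%, 1.43%, 1.33% and 1.30%. A single PBS-T mouse, PBS-T 3 with 2.55%, reached into the NOD-FMT range, and the next PBS-T mouse had 1.63%. The log2 fold change of NOD-FMT over PBS-T was 1.15 (SE 0.17, adjusted p = 1.42e-06; 5.13% of 78 genes called), again the smallest p in that comparison, and IGHV14-3 was the only member called in it. Over NC it was 1.31 (SE 0.20, adjusted p = 4.88e-06; 15.4% of genes called), and PBS-T over NC gave 0.17 (adjusted p = 0.613; 14.1% of genes called).

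**Figure D1:**
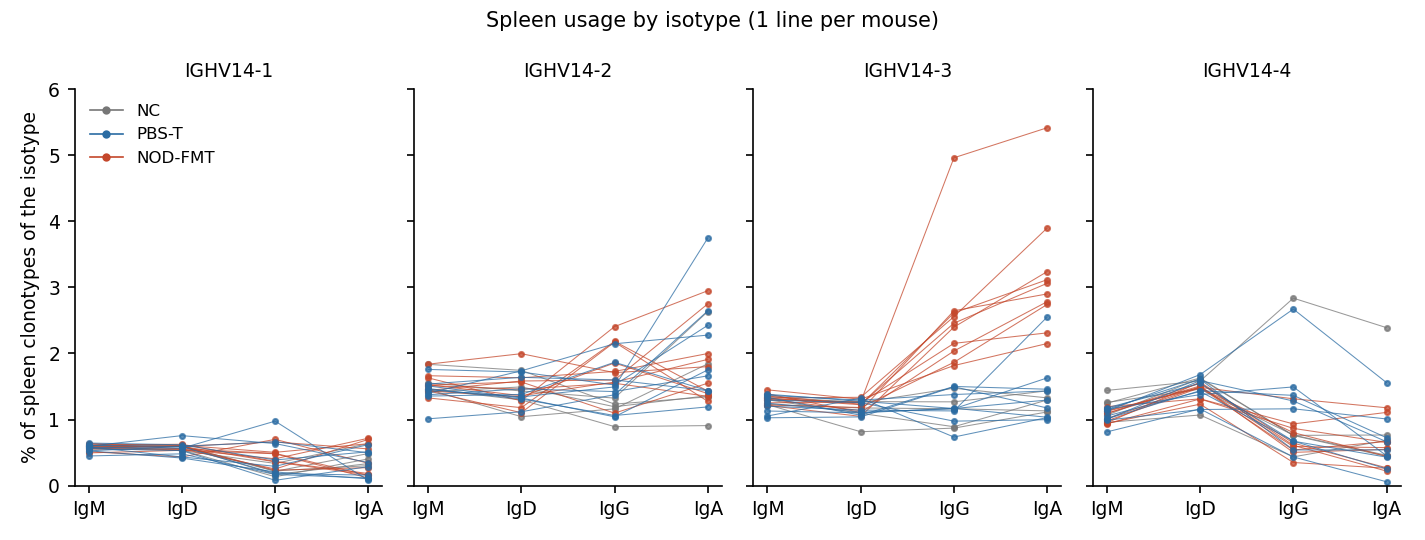
Percent of the spleen clonotypes of each isotype (y axis) that use each IGHV14 gene, for IgM, IgD, IgG and IgA (x axis), 1 line per mouse coloured by group (NC, PBS-T, NOD-FMT). In the IGHV14-3 panel the NOD-FMT lines leave the others at IgG (1.82% to 4.96%, against 0.735% to 1.50% in PBS-T). At IgA they lie at 2.15% to 5.41%, and 1 PBS-T line reaches into them at 2.55%.

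The log2 fold change of IGHV14-3 in NOD-FMT over PBS-T was 0.10 (adjusted p = 0.724; 0.99% of genes called) in SP IgM and 0.03 (adjusted p = 0.986; 0% of 95 genes called) in SP IgD. The test of the difference itself, switched minus IgM within a mouse and NOD-FMT minus PBS-T, gave 0.97 (SE 0.17, adjusted p = 1.92e-05; 4.95% of 101 genes called) for IgG. For IgA it gave 1.05 (SE 0.17, adjusted p = 3.75e-06; 4.95% of genes called). Both were the smallest p of 101 genes. Within NOD-FMT mice, IGHV14-3 usage was higher in IgG than in IgM by 0.90 (SE 0.11, adjusted p = 3.56e-10; 52.5% of genes called) and in IgA by 1.22 (SE 0.11, adjusted p = 1.19e-14; 55.4% of genes called). The same contrast of IgG with IgM was -0.08 (adjusted p = 0.712) in PBS-T mice, where 31.7% of genes were called, and -0.18 (adjusted p = 0.575) in NC mice, where 19.8% were called. For IgA against IgM it was 0.17 (adjusted p = 0.297; 40.6% of genes called) in PBS-T mice and -0.02 (adjusted p = 0.891; 39.6% of genes called) in NC mice.

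The other 3 members did not pass the test between groups in SP IgG or SP IgA. IGHV14-2 in IgG averaged 1.79% ± 0.383 in NOD-FMT, 1.50% ± 0.351 in PBS-T and 1.16% ± 0.162 in NC mice (log2 0.26, adjusted p = 0.376 over PBS-T, and 0.61, adjusted p = 0.0546 over NC). That value over NC passed the threshold without NOD-FMT 1 (0.67, adjusted p = 0.0312), NOD-FMT 7 (0.63, 0.0446), NOD-FMT 9 (0.63, 0.0408) or PBS-T 6 (0.61, 0.0481). IGHV14-4 in IgG averaged 0.716% ± 0.274 in NOD-FMT and 1.14% ± 0.692 in PBS-T mice (log2 -0.64, adjusted p = 0.203), and the value was -0.34 (0.578) without PBS-T 9. IGHV14-1 was scarce in switched clonotypes of every group, with a median of 14.5 IgG clonotypes a spleen, and gave log2 0.06 over PBS-T (adjusted p = 0.893). Over NC it gave 1.05 in NOD-FMT mice (SE 0.43, adjusted p = 0.114) and 0.99 in PBS-T mice (SE 0.44, adjusted p = 0.483).

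The IgG subclasses and mutation classes of IGHV14-3 were compared by their values, with no test and no values of other genes beside them. In IGHG2B, which held most of the gene's IgG clonotypes, NOD-FMT mice had 1.87% to 5.70% and PBS-T mice 0.705% to 1.62%, with no overlap. IGHG2C had 1.47% to 5.41% and 0.854% to 2.04%, which overlap, and means of 2.65% and 1.25%. IGHG1 (means 2.06% and 1.22%) and IGHG3 (1.76% and 0.999%) were less frequent and overlapped. Among mutated IgG clonotypes the gene had 2.14% to 5.61% in NOD-FMT and 0.622% to 1.77% in PBS-T mice, and among unmutated ones 1.15% to 3.53% and 0.738% to 1.79%. Among IGHV14-3 IgG clonotypes the unmutated share averaged 29.2% ± 5.48 in NOD-FMT, 48.9% ± 10.96 in PBS-T and 42.6% ± 8.64 in NC mice. Their mean mutation numbers were 3.56, 2.74 and 3.68. Among IGHV14-3 IgA clonotypes the unmutated share was 34.9% ± 4.96, 47.2% ± 15.3 and 37.1% ± 13.7, with mean mutation numbers of 3.35, 3.51 and 4.53. NOD-FMT and NC mice thus lay near each other in IgG mutation number and in IgA unmutated share. Mean HCDR3 length of IGHV14-3 clonotypes was 11.3 residues ± 0.247 in NOD-FMT and 11.2 ± 0.879 in PBS-T mice in IgG and 11.1 ± 0.378 and 10.7 ± 0.411 in IgA, and IGHJ2 was the J gene used most in both.

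Many clonotypes carried the difference. NOD-FMT mice had 83 to 431 IGHV14-3 IgG clonotypes each, of 3711 to 20023 IgG clonotypes in all, against 12 to 62 of 1025 to 8431 in PBS-T mice. The largest clonotype took 10.99% to 42.8% of the gene's IgG counts in NOD-FMT mice and 8.70% to 64.1% in PBS-T mice. With related HCDR3s of a mouse (at most 20% of residues differing) counted once, the IgG values were 1.51% to 3.53% in NOD-FMT, 0.815% to 1.64% in PBS-T and 0.956% to 1.44% in NC mice. PBS-T 2 (1.64%) then lay above the lowest NOD-FMT mouse, NOD-FMT 8 (1.51%), and the log2 fold change was 0.88 (adjusted p = 3.49e-05). Leaving out any 1 mouse gave 0.95 to 1.16 for IgG and 1.03 to 1.29 for IgA, all past the threshold. By counts rather than clonotypes the IgG ranges overlapped, 0.660% to 9.0% in NOD-FMT and 0.546% to 2.07% in PBS-T. The depth of the IgG repertoires differed between the groups as given, and its part in the result was not tested.

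IGHV14-3 clonotypes in IgG or IgA were mostly private: of 3916 in the 24 spleens, 71 were found in 2 or more spleens and 17 in 3 or more. Nucleotide sequences held by 3 or more mice had been removed before, which can lower these numbers. The IgG clonotype found in the most NOD-FMT and in no PBS-T or NC spleen was AKRGYWYFDV with IGHJ1. It had 178 IgG and 138 IgA counts, in the spleens of NOD-FMT 1, 5, 6 and 9 (31, 4, 213 and 69 counts of all isotypes), and was found in no other library. Its most abundant HCDR3 nucleotide form in each mouse is shown because the same residues were encoded by different bases.
NOD-FMT 1: gctaaacgtggctactggtacttcgatgtc
NOD-FMT 5: gctaaaaggggttattggtacttcgatgtc
NOD-FMT 6: gctaaaagggggtactggtacttcgatgtc
NOD-FMT 9: gctaagaggggctactggtacttcgatgtc
Of its 8 nucleotide forms, 0 were found in more than 1 mouse. Its sequences carried 0 to 7 V mutations. Other IGHV14-3 clonotypes with switched sequences in 3 or more spleens included ARDFDY (134 switched counts), ARDGSSYFDY (7) and TRGTGDY (3). Each of these was in 3 NOD-FMT mice and in no PBS-T or NC mouse. ARGDY with IGHJ2 was in 3 NOD-FMT and 5 PBS-T mice (13 counts), and ASTTVVADY in 2 PBS-T mice and 1 NC mouse (3 counts). In IGHV14-2, the related ARRRGYFDY (4 NOD-FMT mice, 743 counts), ARRRRGYFDY (3, 924 counts) and ARRRGFFDY (3, 215 counts) had switched sequences in NOD-FMT mice and in no PBS-T or NC mouse. The IGHV14-4 clonotype TTGGFAY had IgG sequences in 11 spleens of all groups (6 NOD-FMT, 2 PBS-T, 3 NC). Others were in no NOD-FMT mouse, such as IGHV14-2 AGGRSYWYFDV (2 PBS-T and 2 NC mice) and IGHV14-4 ATGGFAY (2 PBS-T and 1 NC mouse). The share of switched clonotypes of all IGHV genes that lie in 1 group alone is not given. Over all isotypes, 317 family clonotypes were in 3 or more NOD-FMT and no PBS-T spleens and 39 the other way round, among them 106 and 16 of IGHV14-3 and 117 and 9 of IGHV14-2. Over all IGHV genes the same counts were 6610 and 955, which is 0.21% and 0.0303% of clonotypes, against 0.218% and 0.0269% for the family. NOD-FMT mice were 10 against 9, and their spleens held 68431 to 593820 clonotypes of all genes, against 23002 to 202547 in PBS-T mice. The counts for the family are thus near those of all genes and describe these libraries, and clonotypes were singled out here by their sharing.

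In the LG, where IgA predominates, IGHV14-3 was also higher in NOD-FMT mice, but the groups overlapped and the call was fragile. It made up 0.990%, 2.54% and 5.18% (lowest, median, highest) of LG IgA clonotypes in NOD-FMT mice and 0.322%, 0.983% and 2.43% in PBS-T mice. NC mice ranged from 0.657% to 1.39%. The log2 fold change over PBS-T was 1.19 (SE 0.36, adjusted p = 0.0318; 13.3% of 45 genes called), the third smallest p. It missed the threshold without NOD-FMT 6 (adjusted p = 0.0573), NOD-FMT 9 (0.0536), PBS-T 6 (0.0599) or PBS-T 7 (0.0526), and without the 4 mice whose libraries stood apart (0.0788). Without NOD-FMT 7 it was 1.11 (adjusted p = 0.0354).

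Over all isotypes, no member passed the test between groups. Of 21 tests of a member (3 group comparisons in 2 tissues, IGHV14-1 being too rare in LG), edgeR's quasi-likelihood test called 0 after Benjamini-Hochberg adjustment, and 4 had an unadjusted p under 0.05, while DESeq2 called 2. Of all IGHV genes tested, 7.55% were called in LG between NOD-FMT and PBS-T, 1.89% between NOD-FMT and NC and 0% between PBS-T and NC. In SP the shares were 0.99%, 0% and 0%. With DESeq2, 6 of 53 genes in LG and 2 of 101 in SP were called between NOD-FMT and PBS-T. Between NOD-FMT and NC it called 2 and 1, and between PBS-T and NC 0 in both tissues. IGHV14-3 had 3 of the 4 unadjusted values. In SP it averaged 1.39% ± 0.0871 in NOD-FMT, 1.23% ± 0.108 in PBS-T and 1.26% ± 0.0628 in NC mice. Its log2 fold change in SP was 0.17 over PBS-T (SE 0.05, adjusted p = 0.128) and 0.14 over NC (SE 0.06, adjusted p = 0.685). DESeq2 called the former (0.19, adjusted p = 0.00239).

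In LG, IGHV14-3 made up 1.10%, 1.61%, 1.58%, 3.41%, 1.63%, 4.79%, 3.71%, 3.50%, 3.40% and 1.64% of clonotypes in NOD-FMT 1 to 10. In PBS-T 1 to 9 it made up 2.42%, 0.714%, 1.15%, 0.799%, 1.16%, 0.729%, 1.46%, 5.84% and 0.512%, and in NC mice 0.647%, 0.887%, 1.38%, 0.774% and 1.22%. The NOD-FMT values run from 1.10% to 1.64% in 5 mice and from 3.40% to 4.79% in the other 5, and PBS-T 8 is the highest of all. Over PBS-T the log2 fold change was 0.68 (SE 0.36, adjusted p = 0.199), without PBS-T 8 it was 1.21 (adjusted p = 0.0097), and without NOD-FMT 7 it was 0.60 (adjusted p = 0.27). With related HCDR3s counted once it was 1.09 (adjusted p = 0.00239). Over NC it was 1.41 (SE 0.46, adjusted p = 0.0562), and it passed the threshold when any of NOD-FMT 1, 2, 3 or 10 or PBS-T 2 or 8 was left out (adjusted p = 0.0229 without PBS-T 8, 0.0447 to 0.0492 without the others). IGHV14-4 in LG went the other way, 0.416% ± 0.459 in NOD-FMT and 1.02% ± 0.893 in PBS-T mice (log2 -1.30, SE 0.55, adjusted p = 0.14).

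**Figure D2:**
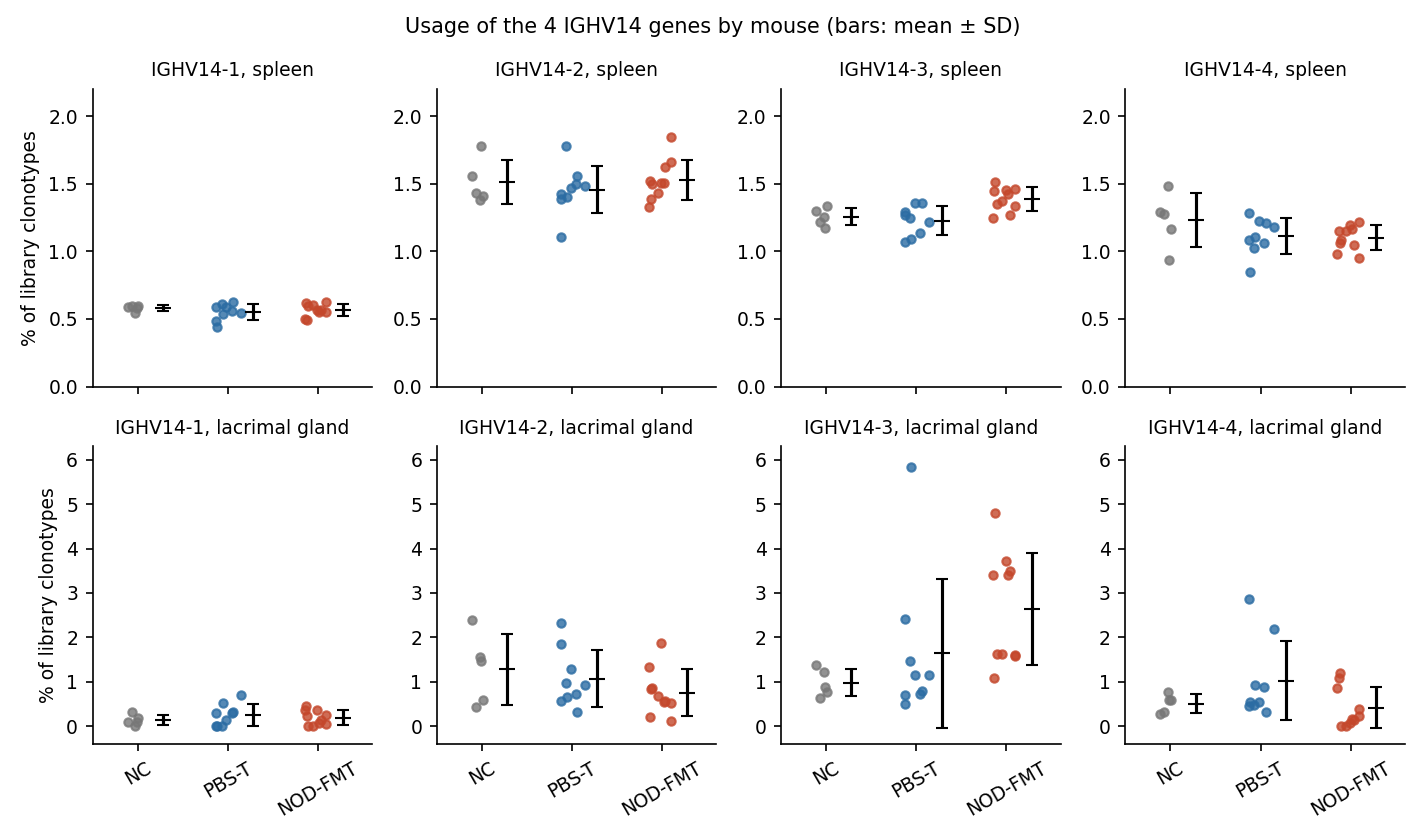
Percent of library clonotypes (y axis) that use each IGHV14 gene in spleen (top row) and lacrimal gland (bottom row), 1 point per mouse, by group (x axis). Bars give the mean ± SD beside each group. Spleen values sit within narrow bands, while lacrimal gland values of IGHV14-3 reach 4.79% in NOD-FMT mice and 5.84% in 1 PBS-T mouse.

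Summed over the 4 genes, the family made up 3.46%, 4.53% and 4.83% (lowest, median, highest of 24 mice) of SP clonotypes and 1.73%, 3.30% and 7.97% of LG clonotypes. SP values were 4.58% ± 0.228 in NOD-FMT and 4.35% ± 0.395 in PBS-T mice. They differed by 0.234 percentage points (exact permutation test over mice, two-sided, p = 0.123, adjusted p = 0.551 over 9 tests). LG values were 4.00% ± 1.81 and 3.99% ± 1.88 (exact permutation p = 0.989). In SP, IGHV14-1 ranged from 0.437% to 0.628% (median 0.576%), IGHV14-2 from 1.10% to 1.84% (1.49%), IGHV14-3 from 1.07% to 1.51% (1.29%) and IGHV14-4 from 0.847% to 1.48% (1.15%). The ranges of the last 3 overlap each other, while IGHV14-1 lies below them all.

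Between the tissues of a mouse, 3 of 4 members were lower in LG than in SP. The log2 fold change of LG over SP, with mouse as a block, was -1.55 for IGHV14-1 (SE 0.27, adjusted p = 4.08e-06), -0.75 for IGHV14-2 (SE 0.20, adjusted p = 0.00184) and -1.07 for IGHV14-4 (SE 0.24, adjusted p = 0.000222). IGHV14-3 gave 0.32 (SE 0.18, adjusted p = 0.155). Of 101 genes 33.7% were called in this comparison, and the median log2 fold change over all of them was -0.17. The filter on low numbers took the libraries of both tissues together, while in LG alone only 53 genes passed it. IGHV14-1 was not among those 53, with 67 different clonotypes over all LGs, and entered through SP. Genes scarce in LG could thus enter by being frequent in SP, which limits the IGHV14-1 value, the share called and the median. By counts instead of clonotypes IGHV14-3 was lower in LG (-1.51, adjusted p = 0.0105). It was higher in LG with shared HCDR3s left out (0.43, adjusted p = 0.0459). The same held with mouse left out of the model, which ignores the pairing of the tissues (0.56, adjusted p = 0.00542). The family as a whole differed by -0.722 percentage points (LG minus SP, sign-flip permutation test over mice, adjusted p = 0.097), lower in 17 of 24 mice. The direction turned with the kind of LG library, 0.114 in merged and -1.43 in unmerged ones. Without PBS-T 8 the difference was -0.920 and passed the threshold (sign-flip permutation test, adjusted p = 0.0233).

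The members parted in the isotypes of the spleen, over all 24 mice. IGHV14-3 and IGHV14-2 were higher in IgA than in IgM, by log2 0.60 (adjusted p = 1.78e-05) and 0.26 (adjusted p = 0.0149). IGHV14-1 and IGHV14-4 were lower, by -0.71 (adjusted p = 7.2e-05) and -0.78 (adjusted p = 8.57e-06). All 4 were thus called, where 64.4% of genes were called. In IgG against IgM (54.5% of genes called), IGHV14-3 was higher by 0.37 (adjusted p = 0.00239), IGHV14-1 lower by -0.59 (adjusted p = 0.000383) and IGHV14-4 lower by -0.31 (adjusted p = 0.0265), while IGHV14-2 gave 0.04 (adjusted p = 0.689). The IGHV14-4 call was lost without NOD-FMT 1 (adjusted p = 0.0542), NOD-FMT 4 (0.0508) or PBS-T 4 (0.0514) and without the 4 mice (0.0792), and with clonotypes of 2 or more counts the value was -0.01 (adjusted p = 0.952). With that minimum the IGHV14-2 call in IgA was lost too (0.17, adjusted p = 0.14). Contrasts for each group were added after the values had been seen. They came from 1 fit over all 24 mice with a shared dispersion, so leaving out a mouse of another group can move them. In IgG they called 52.5% of genes in NOD-FMT, 31.7% in PBS-T and 19.8% in NC mice. In IgA they called 55.4%, 40.6% and 39.6%. In IgG and in IgA, IGHV14-3 was called in NOD-FMT mice alone, as given above. Its IgA value was 1.22 in NOD-FMT, 0.17 in PBS-T and -0.02 in NC mice, so the value over all 24 mice does not hold in each group. IGHV14-4 in IgG was -0.56 in NOD-FMT mice (adjusted p = 0.00346, and -0.17 with 0.411 for clonotypes of 2 or more counts). It was -0.01 in PBS-T mice (0.948), with -0.23 to 0.12 when 1 PBS-T mouse was left out, the lowest without PBS-T 9. In NC mice it was -0.23 (0.607), with -0.72 (0.0894) without NC 5, -0.10 without NC 1, -0.12 without NC 2, -0.09 without NC 3 and 0.07 without the 4 mice. IGHV14-1 in IgG was -1.48 in NC (adjusted p = 0.00208), -0.39 in NOD-FMT (0.0623) and -0.49 in PBS-T mice (0.0743). The NOD-FMT value passed the threshold without NOD-FMT 4 (0.0292), NOD-FMT 10 (0.0422) or PBS-T 9 (0.0433), and the PBS-T value without PBS-T 7 (-0.58, 0.049), PBS-T 8 (-0.66, 0.0259) or PBS-T 9 (-0.73, 0.00644). In IgA, IGHV14-1 and IGHV14-4 were called lower in NOD-FMT and in PBS-T mice, the IGHV14-4 call in PBS-T mice being lost with clonotypes of 2 or more counts (-0.48, adjusted p = 0.0988). IGHV14-2 in IgA was called higher in PBS-T mice (0.44, adjusted p = 0.0101), but not without PBS-T 2 (0.33, 0.0615) or PBS-T 3 (0.31, 0.0943) or with that minimum (0.32, 0.107). In the 5 NC mice edgeR called 0 of the 4 members in IgA, where 39.6% of all genes were called. Of the members, only IGHV14-4 (-0.54) had an unadjusted p under 0.05 (0.0409, adjusted p = 0.0938). Without NC 5 it was -0.97 and called (0.00387), and without NC 1 it was -0.32 (0.367). Except for IGHV14-3, differences between the groups in these contrasts are not drawn from these values.

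In SP IgD against IgM (88.1% of genes called), IGHV14-4 was higher by 0.42 (adjusted p = 2.06e-19). It made up 1.07% to 1.68% of IgD clonotypes (median 1.48%) and 0.813% to 1.44% of IgM clonotypes (median 1.08%). IGHV14-3 was lower by -0.10 (adjusted p = 0.00221) and IGHV14-2 by -0.08 (adjusted p = 0.0223, lost without NC 5, 0.0833, or NOD-FMT 8, 0.058, and at -0.01, 0.965, with clonotypes of 2 or more counts), and IGHV14-1 gave -0.04 (adjusted p = 0.331). In mutated against unmutated SP IgM (76% of genes called), all 4 members were lower, by -0.47, -0.42, -0.29 and -0.55 in the order of the gene numbers, beside a median of -0.29 over all genes. With factors that centre that median, by trimmed means (TMM) or in DESeq2, IGHV14-3 came out at 0.01 and 0.08 and was not called, and under DESeq2 none of the 4 was. For the family, mutated IgM was 1.09 percentage points below unmutated IgM in 23 of 24 mice (sign-flip permutation test, adjusted p = 6e-05).

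In LG, the share of family clonotypes with an IgA sequence was 79.3% ± 9.40 in NOD-FMT and 54.1% ± 23.6 in PBS-T mice, a difference of 25.2 percentage points (exact permutation test, p = 0.00346, adjusted p = 0.0312). Other IGHV genes differed in the same direction, 82.5% ± 8.38 against 63.0% ± 19.5. The family minus the others differed by 5.73 points between the groups (exact permutation p = 0.452), so the higher share was not shown to be particular to the family. The adjusted p rose above the threshold when any of NOD-FMT 5, 7, 8, 9 or 10 or PBS-T 3, 8 or 9 was left out (0.0516 to 0.0677).

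HCDR3s of the family were short. Their mean length in SP was 10.5 residues ± 0.191 against 11.6 ± 0.177 in other IGHV genes (n = 24 mice), a difference of -1.04 within mice, lower in 24 of 24 (sign-flip permutation test, adjusted p = 1.3e-05, the smallest the draws can give). IGHV14-4 was shortest relative to the other genes (-1.36), then IGHV14-1 (-1.17), IGHV14-2 (-1.12) and IGHV14-3 (-0.62), each in 24 of 24 mice. In LG the family difference was -0.43, lower in 16 of 24 mice (sign-flip permutation test, p = 0.00885). IGHV14-3 thus had the longest HCDR3s of the family and lay nearest to the other genes. The other IGHV genes were pooled, and no other single gene was set against the pool. Short HCDR3s are therefore not read as particular to the family.

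**Figure D3:**
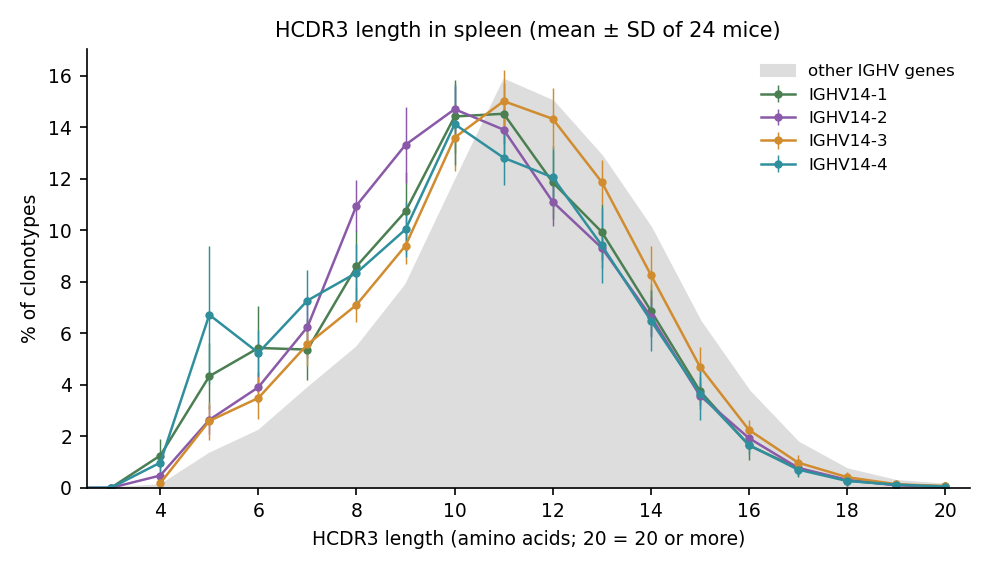
HCDR3 length in amino acids (x axis) against percent of spleen clonotypes (y axis) for the 4 IGHV14 genes (lines, mean ± SD of 24 mice) and all other IGHV genes (shaded). The 4 lines lie left of the shaded area, IGHV14-3 nearest to it, and IGHV14-4 has a second rise at 5 residues.

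The family also paired differently with IGHJ. In SP it used IGHJ2 and IGHJ3 more than other IGHV genes did, by 4.30 and 5.64 percentage points, and IGHJ1 and IGHJ4 less, by -4.25 and -5.68 points, each in 24 of 24 mice (sign-flip permutation tests, adjusted p = 1.3e-05). IGHJ1 and IGHJ4 add more residues to HCDR3 in germline form than IGHJ2 and IGHJ3. IGHV14-4 had the largest shift, with IGHJ3 in 36.4% ± 2.04 of its clonotypes against 23.9% ± 0.631 in other genes. IGHV14-2 used IGHJ2 most (41.2% ± 1.72, against 34.0% ± 0.939 in other genes), and IGHV14-1 was low in IGHJ4 (18.3% ± 1.82, against 26.7% ± 1.24). In IGHV14-3 the 4 differences were the smallest of the family, -1.92, 1.80, 1.00 and -0.88 points for IGHJ1 to IGHJ4, though each passed the test. Here too no other single IGHV gene was tested against the pool, so the pairing is not read as particular to the family.

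**Figure D4:**
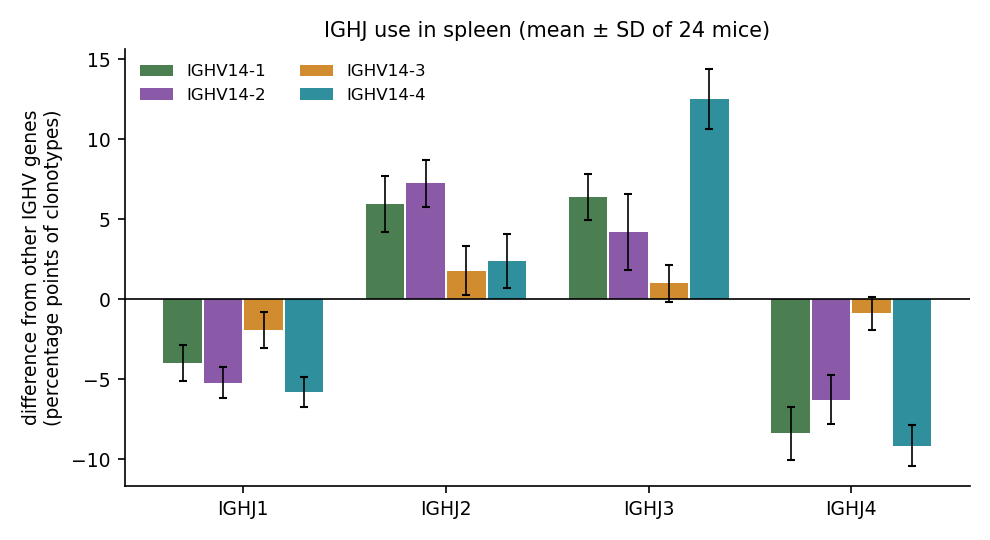
Difference between each IGHV14 gene and all other IGHV genes in the percent of spleen clonotypes that use IGHJ1 to IGHJ4 (y axis, percentage points; bars, mean of 24 mice; whiskers, SD). IGHJ3 is most raised in IGHV14-4 (12.5 points), and IGHV14-3 has the smallest bars.

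Very short HCDR3s, of 6 residues or fewer, had higher medians in IGHV14-4 and IGHV14-1, though the ranges over mice overlapped. In SP they made up a median of 12.2% of the clonotypes of IGHV14-4 and 11.04% of those of IGHV14-1, and 7.02% and 5.80% in IGHV14-2 and IGHV14-3. The lowest spleen had 7.41% in IGHV14-4 and 6.45% in IGHV14-1, and the highest 9.01% in IGHV14-2 and 8.83% in IGHV14-3. Other IGHV genes had a median of 3.56% (3.06% to 5.26%). By counts the medians were 15.8% in IGHV14-4, 15.05% in IGHV14-1, 6.67% in IGHV14-2 and 6.36% in IGHV14-3.

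**Figure D5:**
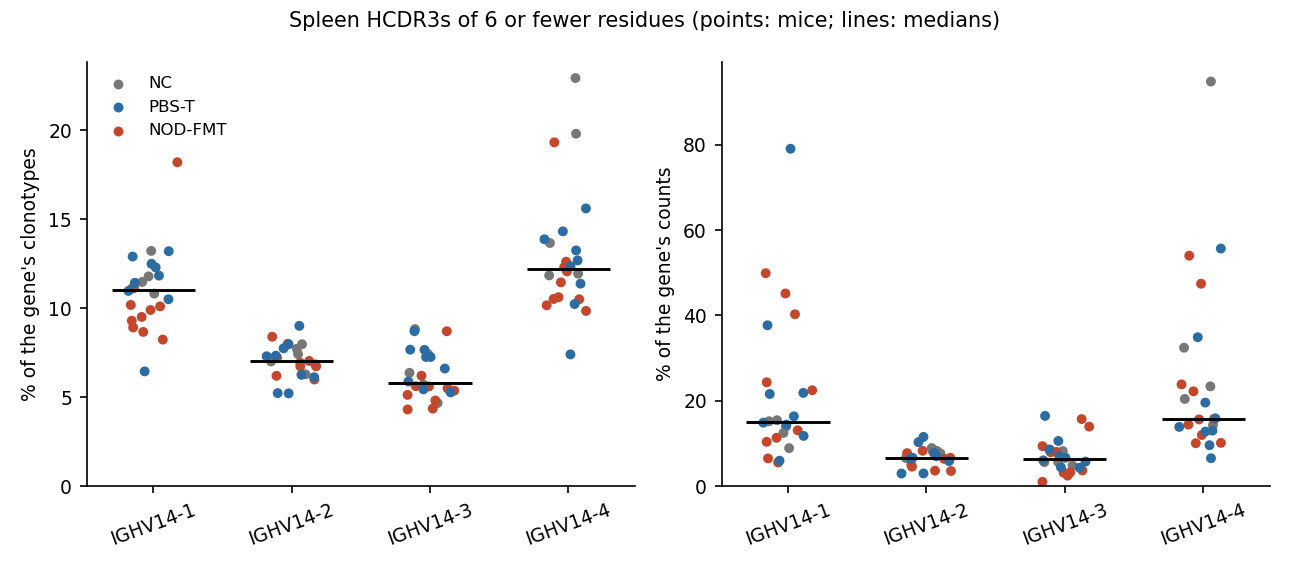
Percent of each IGHV14 gene's spleen clonotypes (left) and counts (right) with an HCDR3 of 6 or fewer residues, 1 point per mouse coloured by group, lines at the medians. The medians of IGHV14-4 and IGHV14-1 lie above those of the other 2 genes, while points of single mice overlap. The single NC mouse at 94.8% of counts is NC 5.

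The spleen of NC 5 held an expansion of this kind. IGHV14-4 took 12.98% of its counts, against 0.316% to 2.67% in the other 23 spleens, and 94.8% of those counts had an HCDR3 of 6 residues or fewer. They were spread over 543 clonotypes and 5316 sequences (66055 counts), and 54 clonotypes held 100 or more counts. Related HCDR3s, such as TTLRY and TTTRY (both with IGHJ2), were counted apart here, so the number of clones is not given. Of the counts, 92.1% were IgM and 42.9% unmutated, and IGHJ2 (54.2%) and IGHJ3 (45.3%) supplied nearly all of them. The HCDR3 bases of the leading sequence of the 3 largest are shown because they are so short.
YFAY, 9365 counts: tactttgcttac
TTLRY, 8785 counts: actactctccggtac
TTTRY, 4459 counts: actacaacacgctac
YFAY had 410 sequences and its leading one was unmutated. TTLRY was found in 10 other spleens and the other pair each in 1 other. PBS-T 9 came next to NC 5 in IGHV14-4 counts with short HCDR3s (55.7% of the gene's counts), and PBS-T 8 had 79.0% in IGHV14-1 (3252 of 4114 counts). Counting from base 1 of the V region, the substitution A155C (D52A in CDR2) was in 5.341% of these NC 5 clonotypes and in 0.082% of like clonotypes of other spleens.

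Single clones set several LG values. In PBS-T 8, the IGHV14-3 clonotype ASNYDYDGYYAMDY with IGHJ4 held 13929 counts, 17.2% of the library, and its leading sequence was unmutated IGHG2C. Within 2 residues of it lay 37 of the 44 IGHV14-3 clonotypes of that gland, and counting them once lowers the gene from 5.84% to 1.12% of clonotypes. The same clonotype had 343 counts in the spleen of PBS-T 8 and was found in 2 LGs in all. In PBS-T 9, the IGHV14-4 clonotype TPYYYGRGYFDV with IGHJ1 (5522 counts, 4.87%, also unmutated IGHG2C) had 640 counts in its own spleen. In NOD-FMT 7, the IGHV14-2 clonotype ARSGEGFDY with IGHJ2 (4897 counts, 1.87%) was IGHA with 14 V mutations and had 14 counts in its own spleen. The largest IGHV14-1 clonotype of a gland, TSLDGYGSSHFDY with IGHJ2 in PBS-T 6, was small (146 counts, 0.263%) and its leading sequence was unmutated IGHA. Large IGHV14-3 clonotypes also stood in the LGs of PBS-T 1 (1921 counts, 4.56%) and NOD-FMT 8 (3043 counts, 3.29%).

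Of the family clonotypes of an LG, a median of 32.3% (1.67% to 76.5%) also occurred in that mouse's own spleen. In spleens of other mice the mean was 2.11%, lower in 24 of 24 mice. Other IGHV genes gave a like median of 33.9%.

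Few clonotypes were shared between mice once nucleotide sequences held by 3 or more mice had been removed, a step that can lower sharing. No like share over all IGHV genes is given. Of 145209 family clonotypes in SP, 8222 (5.662%) were in 2 or more mice, 600 in 5 or more and 34 in 12 or more, and 0 were in every spleen. The most shared were the IGHV14-3 clonotype ARYGNYAMDY with IGHJ4 (19 spleens: 10 NOD-FMT, 4 PBS-T and 5 NC) and the IGHV14-4 clonotype TTGGFAY with IGHJ3 (19 spleens, 27 nucleotide forms), followed by ARDFDY in IGHV14-2 (18) and TTGPDY in IGHV14-1 (11). SP libraries of the groups differ in depth, which moves the number of shared clonotypes, so no comparison of groups is made here. In LG, 78 of 1324 family clonotypes were in 2 or more mice, and AIYDGYVRGFPY of IGHV14-2 was in 8 (1 NOD-FMT, 3 PBS-T and 4 NC).

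V mutations were read against the germline sequences shown, from position 31 on, in 159894 sequences, of which 93.5% gave exactly the mutation number deposited. The 159679 within 2 of it were kept. In LG the most frequent change of IGHV14-2 was G102A (M34I, in the framework after CDR1), in 26.0% of 447 sequences and found in 13 mice. The same change was in 15.4% of 65 IGHV14-1, 7.21% of 624 IGHV14-3 and 7.93% of 227 IGHV14-4 sequences. IGHV14-4 was led by A88G (K30E in CDR1), in 12.8%. In SP, G102A was in 1.29% of IGHV14-2 and 0.699% of IGHV14-1 sequences. Sequences of 1 clone share mutations, so these shares are a description of the libraries.

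Some changes gave the base of other genes. IGHV14-3 carried A277G (I93V, next to HCDR3) in 5.05% of SP and 12.2% of LG sequences, a base found in 43 of 46 IGHV1 genes and in the other 3 members. A271T (T91S) gave a base found in 44 of 46 IGHV1 genes and in 0 members. It was seen in all 4 members, in 4.05%, 3.17%, 4.08% and 3.81% of SP sequences in the order of the gene numbers. In LG it was in 9.1% of IGHV14-3 sequences. The part of such sequences in the usage values was not tested. With clonotypes left out whose HCDR3 also lay under a more abundant IGHV gene of the library, the IGHV14-3 differences in SP IgG and IgA stayed past the threshold.

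Across the 24 spleens, log2 usage of the members did not move as 1 unit. Pearson's r, given as a description over libraries that differ in depth and group, was 0.62 between IGHV14-1 and IGHV14-2, 0.49 between IGHV14-1 and IGHV14-4 and -0.01 between IGHV14-2 and IGHV14-4. Of 87 IGHV genes frequent enough in every spleen, the ones nearest to IGHV14-3 were IGHV5-9-1 (0.62), IGHV1-81 (0.50) and IGHV1-59 (0.47). IGHV14-2 was nearest to IGHV5-17 (0.85), IGHV14-1 to IGHV1S137 (0.73) and IGHV14-4 to IGHV1-49 (0.73). These genes were picked for their high r, so they are no measure for genes chosen otherwise. The median r over the 87 genes lay between -0.03 (IGHV14-2) and 0.03 (IGHV14-4). Neighbours on the chromosome ran from -0.54 (IGHV14-3 and IGHV11-2) to 0.26 (IGHV14-3 and IGHV9-1).

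For comparison, other families in SP IgA against IgM are given by counts of calls, with no test between families. Of 50 genes of the large IGHV1 family, 21 were higher and 6 lower (median log2 0.11). Of 23 genes of the small families that lie among and around IGHV14 on the chromosome, 4 were higher and 13 lower (median -0.35), and of 20 D-proximal IGHV2 and IGHV5 genes 2 were higher and 12 lower (median -0.33). Of the 4 IGHV14 genes 2 were higher and 2 lower. Over all 101 genes 30 were higher and 35 lower, so the split within IGHV14 is not read as particular to it.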

How the data were processed

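The deposited tables give 1 unique heavy-chain sequence a line with its count. The authors merged read pairs, removed low-quality reads, built consensus reads from unique molecular identifiers, called isotypes against IMGT constant genes and V, D and J genes with IgBLAST, and kept productive sequences, and no normalization was applied to the count. The submitters' notes name the build mm10. Identical nucleotide sequences of 3 or more mice of a tissue were removed here as possible contamination. Samples were grouped by their labels, 1 mouse being the unit. The 4 members and the comparison lists (IGHV1, IGHV2 with IGHV5, and the small families between) were chosen with earlier results of these data known, and comparisons of groups within an isotype were added after the values had been seen.

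Clonotypes per IGHV gene (at least 10 in at least 5 libraries) were tested with edgeR 4.0.16 (quasi-likelihood, library size the total of clonotypes) in R 4.3.3, with DESeq2 1.42.0 as an alternative, and p-values were adjusted by Benjamini-Hochberg over all IGHV genes of a comparison at a threshold of 0.05. Family values were compared by two-sided permutation tests, exact over the 92378 arrangements of 10 and 9 mice or, within mice, by 100000 sign flips. The procedures were tested on simulated data. Named genes were the 4 members, the 3 genes of most similar usage over spleens, the chromosomal neighbours, and the clonotypes of the most spleens, the most glands or the largest share of a gland. Alternatives covered the contamination filter, clonotype definition, low counts, normalization, thinning, each mouse left out, the replicate number as a block and libraries that stood apart. Counts carry counting error only, and a count is not a cell. Python 3.11.15, numpy 2.4.6 and pandas 2.3.3 were used.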

Additional observations from a re-analysis of the deposited data

Results flagged for a closer look

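In 15 of the 60 groups of 5 to 10 mice examined, the highest or lowest mouse lay further from its nearest neighbour than Dixon's 95% criterion allows. Chance alone gives about 1 group in 20 where groups are independent and values normally distributed. The 60 groups reuse the same mice and the family includes its members, so the 15 are not read as an excess over that rate. Most were shares of counts in the lacrimal gland. IGHV14-3 made up 17.3% of the LG counts of PBS-T 8 (next PBS-T mouse 5.52%) and 5.84% of its LG clonotypes (next 2.42%), and the family 17.4% of its LG counts (next 6.07%). IGHV14-4 made up 5.64% of the LG counts of PBS-T 9 (next 0.990%) and 1.48% of those of NOD-FMT 4 (next 0.196%). IGHV14-2 made up 2.58% of the LG counts of NOD-FMT 7 (next 0.930%). IGHV14-1 made up 0.244% of the LG counts of NC 3 (next 0.0670%), 0.148% of those of NOD-FMT 7 (next 0.00988%) and 0.265% of those of PBS-T 6 (next 0.0968%).

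In the spleen, IGHV14-4 made up 12.98% of the counts of NC 5 (next NC mouse 0.969%) and the family 15.3% (next 4.24%), while IGHV14-1 was lowest of the NC mice there by clonotypes (0.545%, next 0.583%). IGHV14-3 made up 3.22% of the SP counts of NOD-FMT 6 (next 1.90%), the mouse that also had the highest IGHV14-3 share of IgG and of IgA clonotypes. By clonotypes the family was lowest in NOD-FMT 4 (4.05%, next 4.46%) and in PBS-T 2 (3.46%, next 4.14%) among the mice of their groups. The cause of these values was not tested.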

How the results depend on the processing

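The higher IGHV14-3 usage of NOD-FMT mice in SP IgG and SP IgA stayed past the threshold in every alternative run. Deposited counts and thinned libraries were not among the alternatives run for these isotypes, and by counts the SP IgG ranges overlapped. The LG IgA share of NOD-FMT minus PBS-T mice was 23.5 points without the contamination filter (exact permutation test, adjusted p = 0.0535), 24.1 with the replicate block (0.105), 21.9 in unmerged LG libraries alone (0.585) and 20.1 to 28.5 with 1 mouse left out. The LG usage difference, near 0, was -0.165 by HCDR3 nucleotides, -0.626 in unmerged libraries, -0.307 without the 4 mice and -0.329 to 0.508 with 1 mouse left out, and by counts it was -1.73, with 0.945 under the stricter filter and -0.0968 without PBS-T 8 (-2.24 to -0.0968 with 1 mouse left out). The LG unmutated share turned to 0.494 without HCDR3s shared between genes and 1.98 in unmerged libraries, and the SP unmutated share ran from -3.19 to 0.359 with 1 mouse left out. The group difference in LG minus SP usage turned to 0.0493 with clonotypes of 2 or more counts, 0.0647 without shared HCDR3s and 0.109 when thinned, and ran from -0.577 to 0.301 with 1 mouse left out. LG against SP was 0.114 in merged and -1.43 in unmerged libraries, and -0.920 to -0.623 with 1 mouse left out. The LG HCDR3 length difference was -0.133 in merged libraries.

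In SP, family IgA against IgM (0.601) passed the threshold with clonotypes of 2 or more counts (0.872), without shared HCDR3s (0.779) and without the 4 mice (0.775), and ran from 0.488 to 0.693 with 1 mouse left out, while IgD against IgM fell to 0.0511 with clonotypes of 2 or more counts. Of the member tests between groups over all isotypes, 0 were called, against 3 with clonotypes of 2 or more counts, 2 with DESeq2 or related HCDR3s counted once, 1 with TMM, deposited counts, no contamination filter, the stricter filter or no shared HCDR3s, and 0 to 2 with 1 mouse left out. Over all genes, DESeq2 called 6 of 53 in LG and 2 of 101 in SP between NOD-FMT and PBS-T, and TMM 5 and 2. No such share is given for the other settings, so these counts are not read as a result about the members. IGHV14-3 in LG against SP was -1.51 by counts, and in mutated against unmutated IgM 0.0055 with TMM and 0.0803 with DESeq2. The cause was not tested. The replicate numbers did not pair the mice (correlation over 0.1 for 3 of 9 numbers in each tissue). Under the replicate block IGHV14-3 gave 1.03 in SP IgG (adjusted p = 1.4e-06) and 1.14 in SP IgA (0.000132), and 1.15 in LG IgA (0.0862).

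Over all IGHV genes, calls in LG IgA went from 6 to 1 without the low-number filter and 0 under the block. Calls in LG against SP went from 34 to 84 by counts and 79 without the filter, and calls in IgD against IgM from 89 to 54 with clonotypes of 2 or more counts. No sequence named several IGHV genes, so that alternative gave no value, and the model fits were not run on thinned libraries or on merged and unmerged libraries apart.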
